A study of Mus musculus with 6 samples.

Results

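The nuclear receptor superfamily was followed through 41 receptor genes, named in a list by gene symbol and found as 41 of the 44792 rows of the deposited count table. The libraries were made from vascular smooth muscle cells, which give arteries their tone, isolated from C57BL/6 mice. There were 3 libraries of Ncor1 knockout cells (genotype label Ncor1-/-, from mice with an inducible deletion directed to smooth muscle) and 3 of control cells (genotype label wild type, from littermates). As the design text is worded, cells of both groups received 4-hydroxytamoxifen, which triggers the deletion and is itself a ligand of estrogen receptors. It names both 3 mice and 3 technical replicates per group. The p-values therefore describe how far these libraries spread, and that spread may be technical. The sources used here do not give the age and sex of the mice, the Cre driver or the time after treatment.

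Nuclear receptors are transcription factors, most of which switch genes on or off according to a small lipophilic ligand such as a steroid, thyroid hormone, a retinoid, an oxysterol or a fatty acid. Many of them pair with a retinoid X receptor (RXR) on DNA. Without ligand, thyroid hormone and retinoic acid receptors hold corepressors at their target genes, and the REV-ERB receptors do so without any hormone. Ncor1 encodes such a corepressor, a scaffold that carries histone deacetylase 3 to these receptors. In smooth muscle the family is known for steroid, vitamin D and lipid sensing.

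Depth was 7125538 to 9579490 counts per knockout library and 7231968 to 9005690 per control library. Levels within a gene are CPM, counts scaled to library size with TMM factors, and levels between genes are the deposited FPKM, which is scaled to gene length and library total. The deleted gene stood at 99.3, 93.7 and 94.4 CPM in knockout libraries, against 213, 223 and 230 CPM in control libraries. The ratio of knockout over control was 0.432, so Ncor1 counts remained in every knockout library. Counts per gene cannot show how complete the deletion was, and this was not tested. Of the markers of the labelled cell type, smooth muscle, 9 of 10 were lower in knockout libraries, with a summed level of 3913 to 4115 CPM against 11400 to 11620 CPM in control libraries. Myh11, Tagln and Cnn1 had the smallest adjusted p, and Myh11, the smooth muscle myosin, was at 29.9 ± 1.8 CPM in knockout and 304 ± 6.1 CPM in control libraries (SD, n = 3 each). Markers of other vascular cell types moved as well. The summed level of the 20 endothelial markers was 7962 to 8123 CPM in knockout and 2376 to 2465 CPM in control libraries, and that of 19 macrophage markers 621 to 678.8 CPM against 54.02 to 77.58 CPM. None of these markers was at 0 in all libraries of either group. In bulk RNA, a change in the share of a cell type cannot be told apart from a change within cells, and the part these markers have in the receptor results was not tested.

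Expression was widespread across the family. Counting a gene as expressed when it reached 1 CPM in all 3 libraries of a group, 25 of the 41 receptors were expressed in knockout cells and 23 in control cells, and those 23 were expressed in both. The other 2, Rarb and Pgr, stayed below 1 CPM in at least 1 control library. With 5 CPM as the level, 17 receptors were expressed in knockout and 16 in control cells. At the other end, 5 receptors had no count in any library: Rxrg, Esrrg, Hnf4a, Nr5a1 and Nr0b1. A count of 0 allows up to 3 counts, which is 0.298 to 0.404 CPM in knockout and 0.349 to 0.439 CPM in control libraries. A further 11 receptors had counts that did not pass the filter on low counts, none with more than 14 counts in a library. Rxra and Nr4a3 led these, with 21 and 18 summed counts in knockout and 26 each in control libraries. The remaining 9 were Ppara, Nr1h4, Rora, Rorb, Esr2, Nr3c2, Esrrb, Nr5a2 and Nr0b2. Low readings are not firm evidence of low expression in this table: among 20 housekeeping genes, listed after the data had been seen, none was at 0, but Ppia had only 5.79 to 9.29 CPM over the 6 libraries and Gapdh 38.7 to 80.8 CPM. The glucocorticoid-responsive kinase gene Sgk1 was listed at 0 counts in every library.

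By FPKM, Nr2f6, an orphan receptor of the COUP group, held the first place in both groups, with 33.1 ± 2.0 FPKM in knockout and 38.6 ± 2.5 FPKM in control cells (SD, n = 3 each, here and below). In knockout cells its range overlapped that of Nr1h2, the oxysterol receptor LXR-beta, at 32.2 ± 0.39 FPKM. There Nr1d1 (REV-ERB-alpha) came next with 26.4 ± 0.63 FPKM, above Nr3c1 (the glucocorticoid receptor, 24.6 ± 1.5 FPKM) and Rarg (retinoic acid receptor gamma, 24.0 ± 1.4 FPKM), whose ranges overlapped. In control cells Nr3c1 at 34.6 ± 0.73, Nr1h2 at 32.1 ± 3.3 and Rarg at 30.1 ± 1.0 FPKM followed Nr2f6, with overlapping ranges between neighbours. Nr1d1 ranked only eighth in control cells, at 12.4 ± 1.1 FPKM, below Thra, Rara and Nr1d2. Receptors under 1.3 FPKM in knockout cells, from Thrb at 1.13 FPKM down to Nr2f1 at 0.623 FPKM, overlapped their neighbours throughout, so their order is not resolved.

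**Figure D1:**
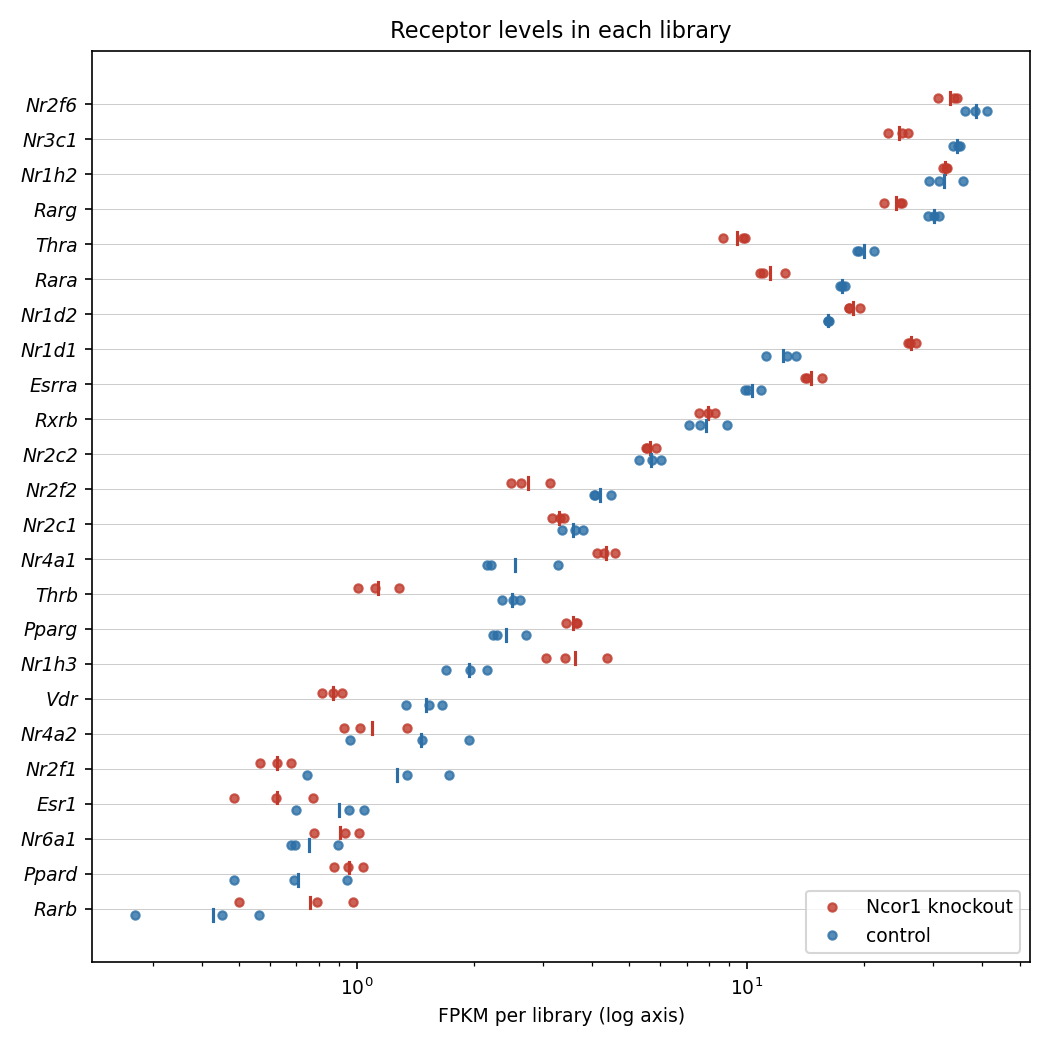
FPKM (log axis) of the 24 receptors that averaged at least 0.5 FPKM in either group, in every library of Ncor1 knockout and control cells, ordered by the control mean. Points are libraries and ticks group means. Nr1d1 lies near 26 FPKM in knockout and 12 FPKM in control cells, while Thra lies near 9 and 20 FPKM.

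Of the 41 receptors, 25 passed the filter and were tested, and 18 of these differed between knockout and control cells at an adjusted p under 0.05. The calls were 6 higher and 12 lower in knockout cells. The background was high: in the quasi-likelihood fit of edgeR, adjusted by Benjamini-Hochberg over all 13323 genes tested, 52.6% of genes were called, 26.4% higher and 26.2% lower. The groups of libraries did not overlap in 16 of the 25 receptors, against 57.8% of all genes. Only 4 receptors, Thra, Thrb, Nr2f1 and Pgr, were called with a change of at least 2-fold, which 13.0% of all genes reached. The median log2 fold change (knockout over control) was -0.15 over the 25 receptors and -0.00394 over all genes, and the median size without sign was 0.61 against 0.251. Scaling by library totals alone moved the median gene by 0.13 on the log2 scale and the receptor median to -0.0161, with 8 receptors higher and 10 lower. Over all genes 68.8% of the calls were then higher, against 50.1% with TMM.

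**Figure D2:**
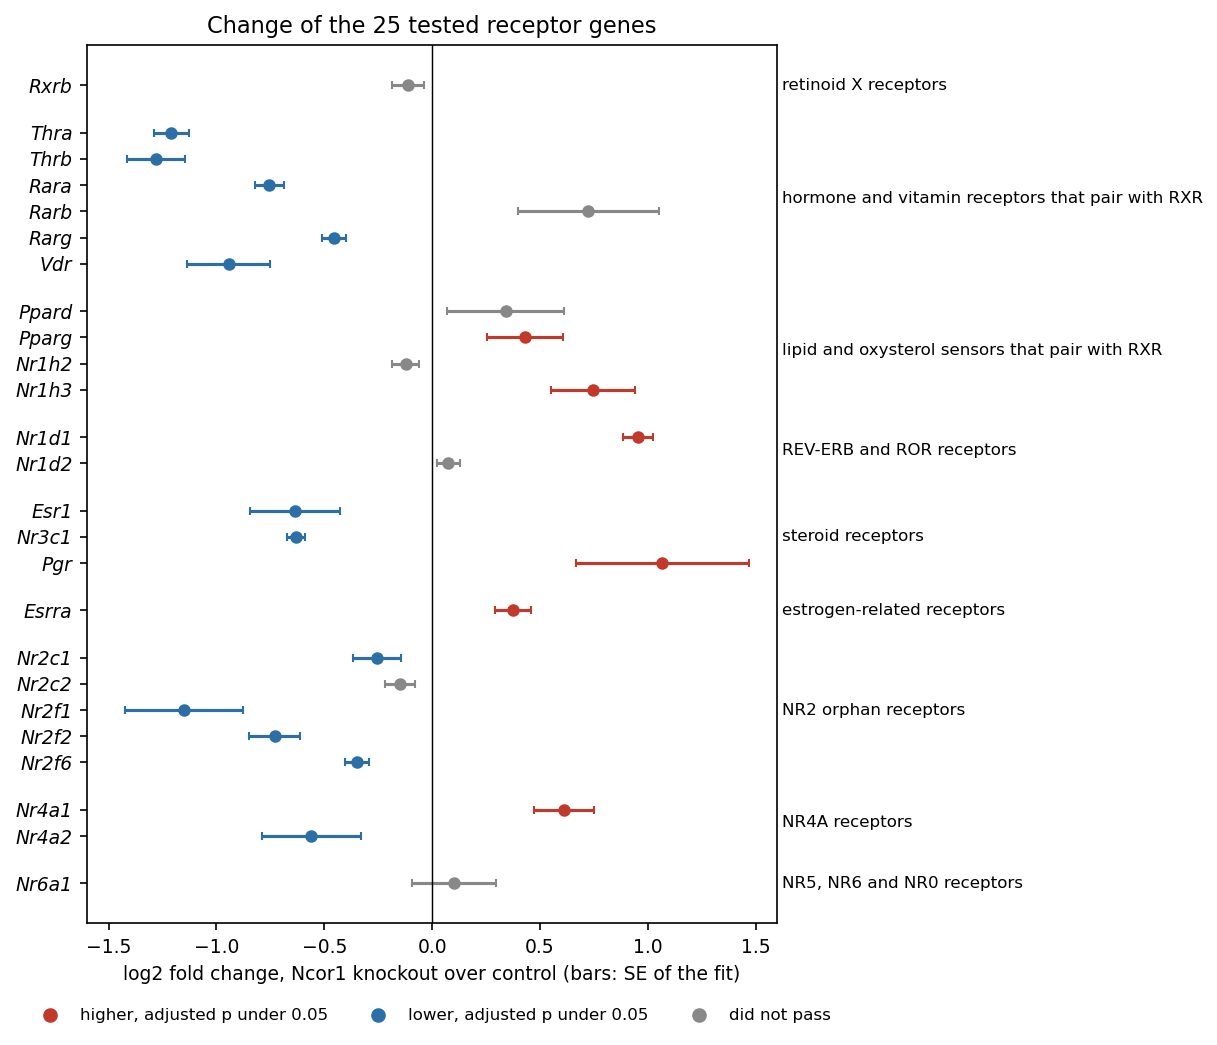
Log2 fold changes, Ncor1 knockout over control, of the 25 tested receptor genes, with the standard error of the fit as bars and genes grouped by role. The 12 lower calls lie between -1.28 (Thrb) and -0.25 (Nr2c1), and the 6 higher calls between 0.38 (Esrra) and 1.07 (Pgr).

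Both thyroid hormone receptors fell more than 2-fold. Thra, the main receptor form of heart, bone and smooth muscle, had 18.8, 21.3 and 20.9 CPM in knockout libraries, against 49.8, 44.9 and 46.1 CPM in control libraries. The groups were far apart. Thra was 2.31-fold lower (log2 fold change -1.21, SE 0.082, adjusted p = 2.17e-20 by edgeR). Thrb, the form known from liver and the pituitary feedback loop, had 8.04, 7.0005 and 6.26 CPM in knockout, against 16.2, 17.9 and 17.4 CPM in control libraries. It fell by a similar factor, 2.43-fold (log2 fold change -1.28, SE 0.135, adjusted p = 1.41e-12 by edgeR). As both fell alike, Thra kept 89.2% ± 1.8 of the summed FPKM of the pair in knockout and 88.8% ± 1.0 in control cells.

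The start of Thrb is shown together with those of the REV-ERB genes, chosen by hand among the receptors with large or divergent changes. Nr2f1, Pgr and the NR4A genes also have such changes and listed promoters and are not shown. The promoters are those listed in RefSeq (assembly GRCm38.p6, a later build than the mm9 named for the reads). Each line gives the 250 bases before a listed start, read on the gene's strand, with the hexamer AGGTCA in capitals. This hexamer is the core sequence that thyroid, retinoid and REV-ERB receptors recognise.
Thrb, chr14:17660710-17660959, plus strand: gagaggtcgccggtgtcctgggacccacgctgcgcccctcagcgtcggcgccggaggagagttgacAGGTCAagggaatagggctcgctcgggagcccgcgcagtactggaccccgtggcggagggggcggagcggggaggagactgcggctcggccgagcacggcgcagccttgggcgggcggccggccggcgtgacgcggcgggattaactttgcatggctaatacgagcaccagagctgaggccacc
Nr1d1, chr11:98775378-98775627, minus strand: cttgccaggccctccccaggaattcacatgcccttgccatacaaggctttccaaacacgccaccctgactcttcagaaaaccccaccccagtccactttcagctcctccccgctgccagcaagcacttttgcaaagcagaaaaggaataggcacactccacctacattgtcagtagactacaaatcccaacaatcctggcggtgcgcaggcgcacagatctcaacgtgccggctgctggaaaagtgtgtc
Nr1d2, chr14:18239107-18239356, minus strand: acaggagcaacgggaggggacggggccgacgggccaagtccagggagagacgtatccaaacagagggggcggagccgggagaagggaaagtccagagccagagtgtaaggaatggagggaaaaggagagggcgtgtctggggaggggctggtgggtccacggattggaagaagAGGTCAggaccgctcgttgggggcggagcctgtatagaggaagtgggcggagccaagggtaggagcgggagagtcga
This Thrb window, at the first of its listed starts, holds the hexamer once, 184 to 179 bases before the start, and the window at the other listed start of Thrb, not shown, holds none. The Nr1d2 window holds it once, 77 to 72 bases before the start. The Nr1d1 window holds none on either strand. Searched on both strands, the hexamer stood in 14.0% of all 32851 promoter windows and in 11 of the 59 windows of 38 receptor genes. A match is a description of letters and not a measured binding site. For receptor sites only this exact hexamer was searched, within these 250 bases. A missing match thus does not show that a receptor site is absent.

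Retinoic acid receptors fell less, and not all of them. Rara had 40.7, 35.0 and 35.5 CPM in knockout libraries, against 63.2, 61.1 and 62.9 CPM in control libraries. It was 1.69-fold lower (log2 fold change -0.75, SE 0.0683, adjusted p = 4.61e-15 by edgeR), with no overlap of the groups. Rarg, the more abundant form, had 71.0, 63.5 and 69.7 CPM in knockout, against 90.2, 93.0 and 97.4 CPM in control libraries, 1.37-fold lower (log2 fold change -0.45, SE 0.0557, adjusted p = 2.13e-10). Rarb, a receptor gene that is itself induced by retinoic acid, had 1.53, 2.42 and 2.98 CPM in knockout and 1.51, 0.901 and 1.90 CPM in control libraries, and did not pass (log2 fold change 0.72, SE 0.327, adjusted p = 0.0568). Its groups overlapped. Without knockout replicate 1 or control replicate 3 it passed (adjusted p = 0.0185 and 0.039), as with library totals alone (0.0196). In GENCODE annotation of GRCm38, 52.9% of the exon bases of Rarb lie opposite exons of Top2b, a gene with 8990 counts over the 6 libraries, and the use of strand in counting is not given, so the level of Rarb is uncertain. Top2b itself was at 180 ± 0.66 CPM in knockout and 191 ± 3.9 CPM in control libraries. Within the family, Rarg made up 66.3% ± 0.89 of the summed FPKM in knockout and 62.6% ± 1.0 in control cells, and Rara 31.6% ± 1.5 against 36.5% ± 1.0.

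Vdr, the vitamin D receptor, had 3.83, 3.63 and 3.38 CPM in knockout libraries, against 7.57, 6.95 and 6.14 CPM in control libraries. All knockout libraries lay below all control libraries, and the gene was 1.92-fold lower (log2 fold change -0.94, SE 0.194, adjusted p = 3.12e-05 by edgeR). Of the 6 hormone and vitamin receptors that pair with RXR, 5 were thus lower and Rarb did not pass, against 26.2% of all genes called lower. Of their RXR partners only Rxrb could be tested. Rxrb had 41.9, 38.1 and 39.9 CPM in knockout and 41.8, 39.1 and 49.4 CPM in control libraries, which overlapped (log2 fold change -0.11, approximate 95% interval of -0.26 to 0.04 as the change ± 1.96 SE, adjusted p = 0.219). The sign of Rxrb turned with library totals alone and by FPKM. Rxrb held 98.0% ± 0.33 of the RXR FPKM in knockout and 97.5% ± 1.3 in control cells. Rxra, usually a widely expressed form, was at 0.83 ± 0.18 CPM in knockout and 1.08 ± 0.52 CPM in control libraries, and Rxrg had no counts. The Rxrb share rests on this low reading of Rxra, which is as uncertain as those of the housekeeping genes with few counts above.

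Among lipid sensors, 2 of the 4 tested genes were called by edgeR, both higher, a share near the 52.6% of all genes. Nr1h3, the oxysterol receptor LXR-alpha that is abundant in macrophages and liver, had 5.75, 8.21 and 6.36 CPM in knockout libraries, against 4.42, 3.99 and 3.51 CPM in control libraries. It was 1.68-fold higher without overlap (log2 fold change 0.75, SE 0.195, adjusted p = 9.11e-04 by edgeR). Nr1h2, the ubiquitous LXR-beta, had 63.1, 62.7 and 61.1 CPM in knockout and 62.3, 65.6 and 76.5 CPM in control libraries, which overlapped (log2 fold change -0.12, approximate 95% interval -0.25 to 0.0011, adjusted p = 0.0982). Without control replicate 1 it passed as lower (-0.19, adjusted p = 0.0221), and its sign turned with library totals alone and by FPKM. Nr1h3 accordingly made up 8.61%, 11.9% and 9.72% of the LXR FPKM in knockout libraries, against 6.85%, 5.92% and 4.53% in control libraries. Such shares do not depend on the scaling between libraries. Of the 19 macrophage markers 18 were higher in the same libraries, with a median log2 fold change of 3.33, among them C1qc, C1qb and Laptm5, and Cd14 did not pass (log2 fold change -0.63), though 1 marker of the list was called lower without control replicate 1. Their part in the level of Nr1h3 was not tested.

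Pparg, the fatty acid sensor that directs fat cell formation and is also found in macrophages and the vessel wall, had 6.77, 7.14 and 7.15 CPM in knockout and 5.82, 4.89 and 4.82 CPM in control libraries. It was 1.35-fold higher (log2 fold change 0.43, SE 0.176, adjusted p = 0.0352 by edgeR), and the groups did not overlap. This call ended without knockout replicate 2 or 3 (adjusted p = 0.0677 and 0.0834), without control replicate 2 or 3 (0.1 and 0.0949), without the filter on low counts (0.0578) and by DESeq2 (0.208). The adipocyte markers Adipoq, Plin1 and Lep had 0 counts in all 6 libraries, and of the tested markers Plin4 was lower (log2 fold change -3.33) and Lipe higher (0.46). The call of Lipe ended without knockout replicate 1 or 2 (adjusted p = 0.0664 and 0.114), without control replicate 1 or 2 (0.198 and 0.175) and by DESeq2 (0.229). Ppard, a broadly expressed fatty acid sensor, had 2.94, 2.69 and 3.18 CPM in knockout and 1.63, 2.32 and 3.22 CPM in control libraries, which overlapped (log2 fold change 0.34, SE 0.27, adjusted p = 0.30). Ppara, known from liver fat oxidation, had 5 summed counts in knockout and 15 in control libraries and was not tested.

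Nr1d1 showed the firmest increase of the family. It encodes REV-ERB-alpha, a repressor of the circadian clock that acts by recruiting NCOR1 and can bind its own promoter. Nr1d1 had 65.2, 66.1 and 67.8 CPM in knockout libraries, against 34.8, 36.5 and 31.1 CPM in control libraries. Every knockout library lay far above every control library, and the gene was 1.94-fold higher (log2 fold change 0.95, SE 0.0683, adjusted p = 2.53e-19 by edgeR). Its partner in the clock, Nr1d2 (REV-ERB-beta), had 81.6, 87.0 and 80.8 CPM in knockout and 78.6, 78.5 and 79.2 CPM in control libraries. These groups did not overlap, but the difference did not pass (log2 fold change 0.07, approximate 95% interval -0.03 to 0.18, adjusted p = 0.254). With library totals alone it passed (0.21, adjusted p = 0.00075), as it did in the fits on FPKM. Nr1d1 made up 58.5% ± 1.2 of the REV-ERB FPKM in knockout cells, against 43.3% ± 2.1 in control cells. Of the ROR receptors, activators at the same DNA sites, Rora had 0 summed counts in knockout and 2 in control libraries and Rorb 2 and 1. These low readings are as uncertain as those of the housekeeping genes with few counts above.

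Nr1d1 and Thra are neighbours on opposite strands of chromosome 11 and overlap at their ends. In GENCODE annotation of GRCm38 they share 263 exon bases, 9.7% of those of Nr1d1 and 8.3% of those of Thra. Reads from these bases cannot be told apart without strand. The changes of the genes had opposite signs, up for Nr1d1 and down for Thra. The part of the shared bases in either change was not tested.

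**Figure D3:**
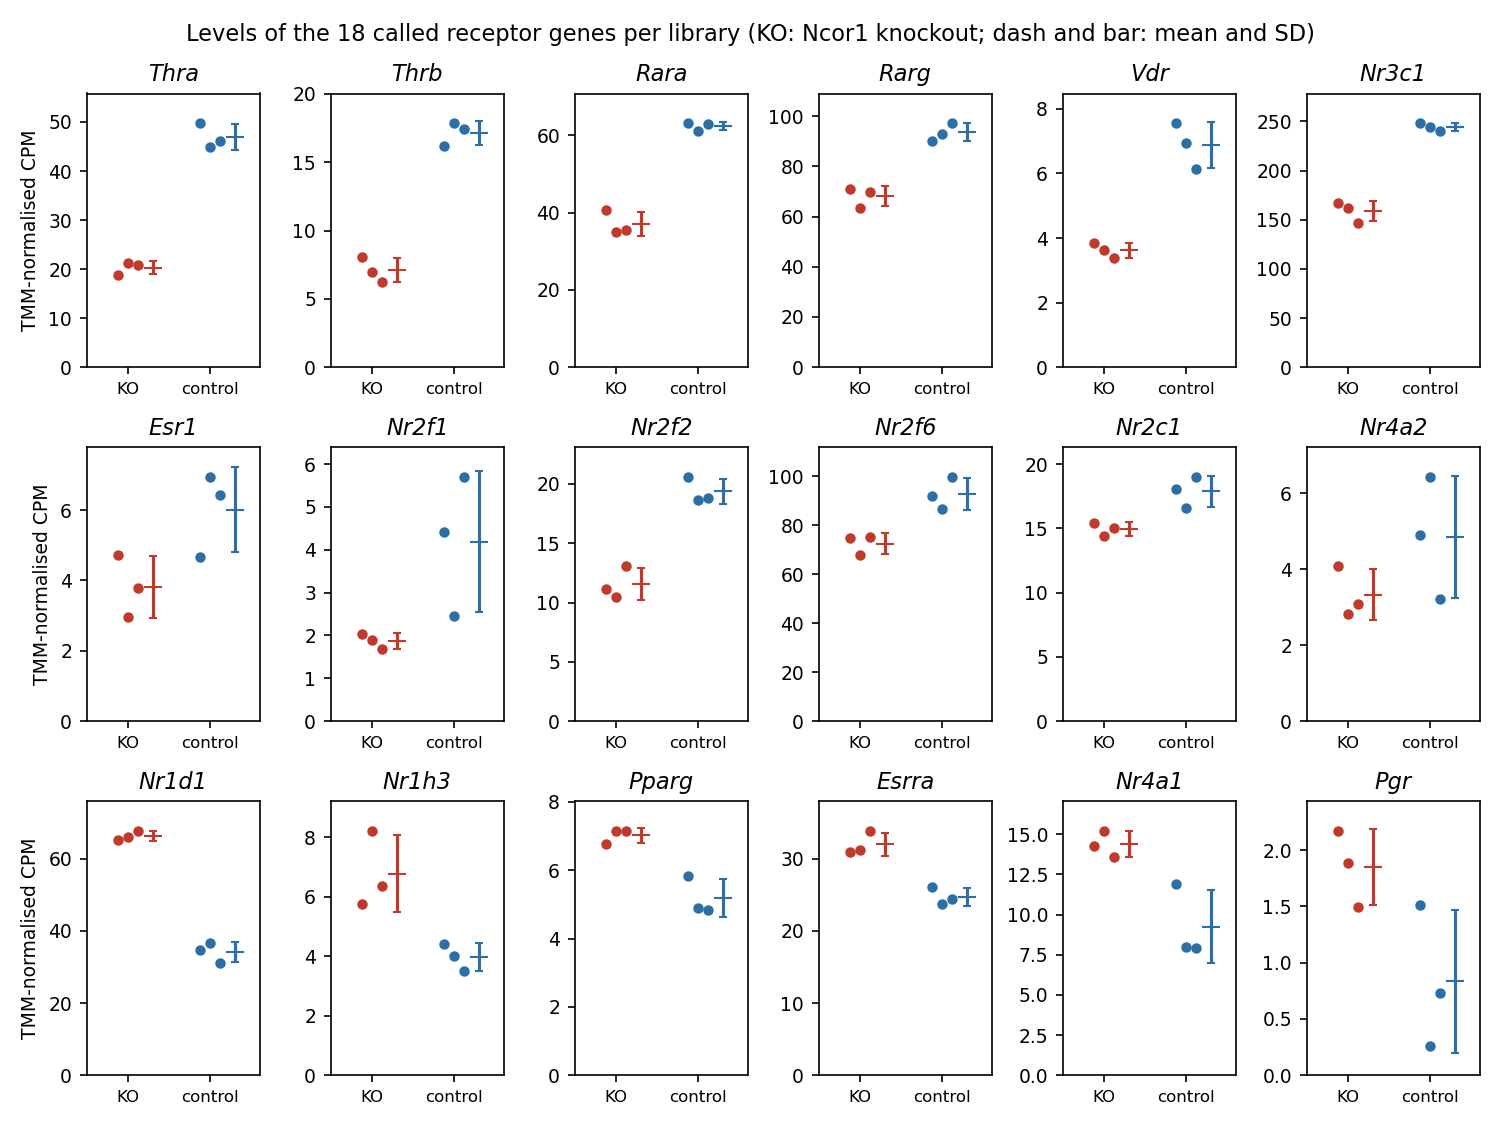
TMM-normalised CPM of the 18 called receptor genes in every library, Ncor1 knockout (KO) left of control, each panel with its own axis from 0. Dashes and bars are means and SDs of 3 libraries. In 15 panels the groups do not overlap, and they overlap in Esr1, Nr4a2 and Pgr.

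Steroid receptors were led by Nr3c1, the glucocorticoid receptor. It had 167, 162 and 147 CPM in knockout libraries, against 249, 244 and 240 CPM in control libraries. The groups did not overlap, and Nr3c1 was 1.55-fold lower (log2 fold change -0.63, SE 0.0419, adjusted p = 8.66e-21 by edgeR). Esr1, estrogen receptor alpha, had 4.72, 2.96 and 3.78 CPM in knockout and 4.66, 6.95 and 6.43 CPM in control libraries. It was called lower (log2 fold change -0.64, SE 0.207, adjusted p = 0.00744) although the groups overlapped, and lost this call without knockout replicate 2 (adjusted p = 0.0599), without control replicate 2 (0.0611), by DESeq2 (0.0951) and on log2(FPKM + 1) without filter (0.219). Pgr, the progesterone receptor, had 2.17, 1.88 and 1.49 CPM in knockout and 1.51, 0.257 and 0.731 CPM in control libraries. Its call as higher (log2 fold change 1.07, SE 0.4, adjusted p = 0.0211) rested on 46 summed counts in knockout and 20 in control libraries and ended without knockout replicate 1 or 2 (adjusted p = 0.0821 and 0.0538) and without control replicate 2 or 3 (0.202 and 0.074), as well as by DESeq2 (0.158) and on log2(FPKM + 1) without filter (0.133). Without control replicate 2 the log2 fold change of Pgr was 0.64, and without control replicate 1 it was 1.89. Esr2 (estrogen receptor beta) had 7 summed counts in knockout and 8 in control libraries, and Nr3c2, the mineralocorticoid receptor, 11 and 7.

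Of the estrogen-related receptors, which bind no estrogen and act on genes of mitochondrial metabolism, only Esrra could be tested. Esrra had 30.9, 31.2 and 33.9 CPM in knockout libraries, against 26.1, 23.7 and 24.4 CPM in control libraries. The groups did not overlap, and the gene was 1.30-fold higher (log2 fold change 0.38, SE 0.0851, adjusted p = 1.45e-04 by edgeR). Its coactivator gene Ppargc1a had 0.894, 0.808 and 1.39 CPM in knockout and 0.233, 0.257 and 0.292 CPM in control libraries, too few counts to be tested.

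The COUP receptors, repressors with roles in vessel and heart development, all fell. Nr2f2 (COUP-TFII, which marks veins and is expressed in mesenchyme and venous endothelium) had 11.1, 10.5 and 13.1 CPM in knockout libraries, against 20.6, 18.7 and 18.9 CPM in control libraries, 1.66-fold lower (log2 fold change -0.73, SE 0.117, adjusted p = 2.41e-07 by edgeR). Nr2f2 thus fell in libraries in which 19 of 20 endothelial markers rose, against 26.4% of all genes called higher. The median log2 fold change of these markers was 1.65, led by Plvap, Mmrn2 and Emcn, while Vwf was lower (-0.57). The part of these markers in the level of Nr2f2 was not tested. Nr2f1 (COUP-TFI) had 2.04, 1.88 and 1.69 CPM in knockout, against 4.42, 2.44 and 5.70 CPM in control libraries (log2 fold change -1.15, SE 0.273, adjusted p = 2.87e-04). It lost its call only in the fit on log2(FPKM + 1) without filter (adjusted p = 0.0789). Nr2f6 had 74.7, 67.9 and 75.2 CPM in knockout, against 92.1, 86.6 and 99.9 CPM in control libraries, 1.27-fold lower (log2 fold change -0.35, SE 0.0566, adjusted p = 3.48e-07). All 3 genes had knockout libraries below every control library. Over all genes, the groups did not overlap in 57.8%, and 26.2% were called lower. Of the exon bases of Nr2f6, 41.2% lie opposite Ocel1, a gene with 112 summed counts in knockout and 91 in control libraries. Nr2f6 had 1846 and 2147.

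The testicular orphan receptors Nr2c1 and Nr2c2, repressors that compete for retinoid and thyroid response elements, changed little. Nr2c1 had 15.4, 14.4 and 15.0 CPM in knockout and 18.04, 16.6 and 19.0 CPM in control libraries, and only just passed as lower (log2 fold change -0.25, SE 0.111, adjusted p = 0.0487 by edgeR). The call of Nr2c1 ended on leaving out any library but control replicate 2 (adjusted p = 0.0564, 0.123 and 0.101 without knockout replicates 1, 2 and 3, and 0.109 and 0.145 without control replicates 1 and 3), and with DESeq2 size factors (0.0511) or library totals alone (0.368). It ended too without the filter on low counts (0.0844), by the DESeq2 test (0.247) and in the FPKM fits (0.351 to 0.427). Nr2c2 had 42.9, 40.5 and 39.9 CPM in knockout and 48.1, 45.4 and 42.7 CPM in control libraries, and did not pass (log2 fold change -0.15, approximate 95% interval -0.29 to -0.01, adjusted p = 0.0695). Without control replicate 3 it passed (-0.19, adjusted p = 0.0344). Nr2c2 shares 43.5% of its exon bases with Mrps25 on the opposite strand, which was at 56.8 ± 7.0 CPM in knockout and 55.8 ± 2.6 CPM in control libraries.

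The NR4A receptors, immediate early genes that act without a known hormone, went in different directions. Nr4a1 (Nur77) had 14.3, 15.2 and 13.6 CPM in knockout libraries, against 11.9, 7.98 and 7.89 CPM in control libraries, without overlap, and was 1.53-fold higher (log2 fold change 0.61, SE 0.139, adjusted p = 1.48e-04 by edgeR). Nr4a2 (Nurr1) had 4.09, 2.83 and 3.08 CPM in knockout and 4.89, 6.43 and 3.22 CPM in control libraries, which overlapped. It was called lower (log2 fold change -0.56, SE 0.229, adjusted p = 0.0344), but not without knockout replicate 2 or 3 (adjusted p = 0.125 and 0.126), without control replicate 1 or 2 (0.0718 and 0.322) or with the replicate number as a block (0.0568). The call of Nr4a2 also ended by limma-voom (0.0564), with library totals alone (0.102), by DESeq2 (0.238) and in the FPKM fits (0.295 to 0.419), and without control replicate 2 the log2 fold change was -0.32. Nr4a3 was not tested. Nr4a1 made up 78.15% ± 3.5 of the NR4A FPKM in knockout and 61.6% ± 9.8 in control cells. Of the NR5, NR6 and NR0 receptors, known mainly from gonad, adrenal, liver and early embryo, only the germ cell nuclear factor Nr6a1 was tested. It had 6.00, 5.52 and 4.57 CPM in knockout and 5.82, 4.37 and 4.53 CPM in control libraries and did not pass (log2 fold change 0.10, SE 0.195, adjusted p = 0.70).

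**Figure D4:**
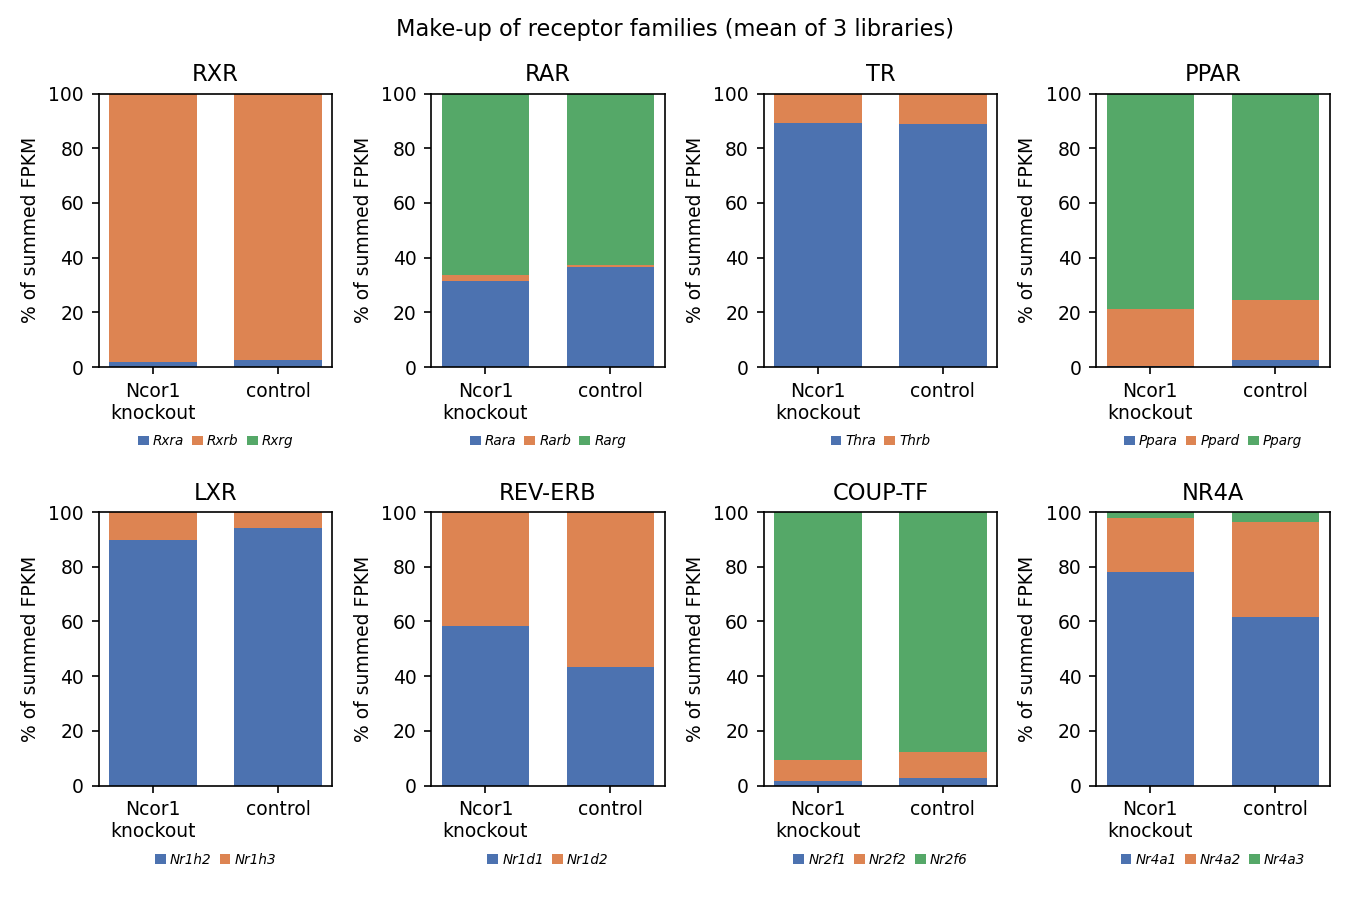
Share of each receptor in the summed FPKM of its family, as the mean of 3 libraries, Ncor1 knockout left of control. Nr1d1 holds 58.5% of the REV-ERB sum in knockout and 43.3% in control cells, and Nr1h3 10.1% against 5.77% of the LXR sum, while Rxrb and Thra hold near-equal shares in both groups.

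Summed over all 41 receptors, the level was 233.6 ± 3.0 FPKM in knockout and 250.3 ± 4.8 FPKM in control cells. FPKM is scaled by library totals. The sum of TMM-normalised CPM, not scaled to gene length, was 760.3 to 789.3 in knockout and 924.3 to 956.7 in control libraries. The size of the difference in the sum thus depends on the scaling. Single families went in different directions by FPKM. TR genes together stood at 10.6 ± 0.53 FPKM in knockout and 22.4 ± 0.97 FPKM in control cells, and RAR genes at 36.2 ± 2.1 against 48.1 ± 1.0 FPKM. REV-ERB genes stood at 45.1 ± 0.83 FPKM in knockout and 28.6 ± 1.1 FPKM in control cells, and the RXR sum was 8.095 ± 0.41 against 8.05 ± 0.85 FPKM. For single values like these, 3 against 3 libraries cannot give an exact permutation p below 0.1, so no test is given.

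Of 17 tested genes in a list of corepressors and coactivators, 2 were higher and 5 lower, with a median log2 fold change of -0.0568. This is 41.2% called, against 52.6% of all genes. Ncor1, the deleted gene, is 1 of the 5 lower genes and its fall was set by the design. The balance turned with the scaling: with library totals alone 6 were higher and 2 lower, and in the filtered FPKM fits 4 and 2. By DESeq2 1 was higher and 2 lower, and without knockout replicate 1 or 3 or control replicate 2 only 3 were lower. Beside Ncor1 itself, the coactivator Ncoa3 was higher (66.6 ± 0.98 CPM in knockout and 46.6 ± 2.6 CPM in control libraries, log2 fold change 0.51) and Ncoa2 lower (51.7 ± 1.9 against 68.8 ± 1.4 CPM, -0.41). The enzyme subunit of the corepressor complex, Hdac3, was at 75.4 ± 4.1 and 78.3 ± 2.2 CPM and did not pass (-0.06).

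Of the genes that make, carry or break down receptor ligands, 13 could be tested and all were called, 7 higher and 6 lower, against 52.6% of all genes called. The 13 other genes of this list had too few counts, among them the deiodinases, which activate or break down thyroid hormone and were picked out after their values were seen. Dio2 had 5, 5 and 10 counts in knockout libraries and none in control libraries, while Dio3 had none in knockout libraries and 4, 4 and 5 counts in control libraries. Dhrs3, which turns retinal back to retinol, was at 8.36 ± 0.84 CPM in knockout and 61.8 ± 2.9 CPM in control libraries (log2 fold change -2.88, SE 0.0938, adjusted p = 1.53e-36 by edgeR). Cyp26b1, which degrades retinoic acid, was at 103 ± 1.9 against 46.3 ± 6.2 CPM (1.16, SE 0.0629). Both genes are also known retinoic acid targets, and in that list 2 of 5 tested genes were higher and 3 lower, Tgm2 (-0.49) being lower. Ch25h, which makes the LXR ligand 25-hydroxycholesterol and is induced in activated macrophages, was at 26.2 ± 0.55 CPM in knockout and 3.92 ± 1.2 CPM in control libraries (2.73, SE 0.143), beside macrophage markers with a median of 3.33. The part of macrophages in the level of Ch25h was not tested. The other called members of the ligand list had log2 fold changes between -1.36 (Cyp7b1) and 1.87 (Slc16a10, a thyroid hormone transporter).

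Known target genes of the receptors went both ways in most lists, and their counts stand against 26.4% of all genes called higher and 26.2% lower. Of 5 tested thyroid hormone targets, 4 were lower and 1 higher, with Hr (3.40 ± 0.044 CPM in knockout and 9.71 ± 1.1 CPM in control libraries, log2 fold change -1.51), Klf9 (-1.05) and Atp2a2 (-0.41) the lower genes with the smallest adjusted p. Of 8 LXR targets, 4 were higher and 1 lower (62.5% called, near the 52.6% of all genes), with the sterol exporter Abca1 at 248 ± 22 CPM in knockout and 106 ± 3.0 CPM in control libraries (1.21), Apoe higher (1.38) and the desaturase Scd1 lower (-0.89). PPAR targets gave 4 higher and 4 lower of 9 (2 lower by DESeq2), led by Angptl4 (2.56), Plin2 (0.87) and Cd36 (3.44), the scavenger receptor that macrophages carry. The part of macrophages in the level of Cd36 was not tested either. Of the 3 tested REV-ERB and ROR targets only Nfil3 passed, as lower (-0.28). This call ended with library totals alone, by FPKM, by DESeq2 and without knockout or control replicate 2 (adjusted p = 0.0564 and 0.0745). Arntl, the clock gene that REV-ERB represses, had 1.29 ± 0.31 CPM in knockout and 0.83 ± 0.37 CPM in control libraries and was not tested. Glucocorticoid targets gave 4 higher and 2 lower of 6 (1 lower by DESeq2, in the FPKM fits and without knockout replicate 1 or control replicate 2), with Errfi1 (1.24), Dusp1 (0.80) and Fkbp5 (0.56) higher. The 2 lower genes were Tsc22d3 (-0.72) and Mt2 (-0.54). The medians of these lists were -0.41 for thyroid hormone, -0.49 for retinoic acid, 0.11 for LXR, 0.02 for PPAR, -0.10 for REV-ERB and ROR, and 0.46 for glucocorticoid targets, against -0.00394 over all genes.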

How the data were processed

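RNA of 6 libraries was sequenced, grouped by the sample titles. Per the submitters' processing notes, HISAT2 2.0 and mm9 were used. How reads were counted, the annotation and any use of strand are not stated there. The deposited table of counts holds whole-number reads per gene symbol, not normalized. FPKM values, deposited by the authors in a separate table, are these counts divided by the length of the gene and the total of the library: for 13238 genes the implied length differed between libraries by at most 1.05e-05 of its mean. The 41 receptors, the other gene lists and the tests were chosen with earlier results of these data known.

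Counts were fitted over the whole table with edgeR 4.0.16 (R 4.3.3): filterByExpr kept 13323 of 23349 genes with any count, followed by TMM factors and the robust quasi-likelihood test, two-sided, Benjamini-Hochberg adjusted, threshold 0.05, no replicate term. SE is the log2 fold change over the square root of F. The pipeline was tested on simulated data. Alternatives used DESeq2 1.42.0 and limma 3.58.1. Library pairs within groups differed beyond sampling noise (chi-square per degree of freedom 1.38 to 1.85), so none was treated as a copy of another. Pairs between groups gave 56.6 to 73.9. The small values within groups cannot show whether the libraries come from different mice or are technical replicates. Depth was 7125538 to 9579490 counts.

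Every receptor called with at least 1 CPM in either group, or not called with at least 10 CPM, is given in full, as are other tested receptors; from each other list up to 3 called genes with the smallest adjusted p are named. Others were named after their values were seen. Fibroblast and adipocyte markers were further lists. Fibroblast markers gave 3 higher and 3 lower of 6, with a median log2 fold change of 0.08. Their smallest adjusted p were those of Dcn (log2 fold change 3.62), Cd34 (1.78) and Serpinf1 (-1.12). Dcn was at 321 ± 7.6 CPM in knockout and 26.1 ± 2.6 CPM in control libraries. Adipocyte markers gave 1 higher and 1 lower of 2 (median -1.43). The symbols Bmal1 and Adgre1 matched no row, Bmal1 being listed as Arntl. Exon overlaps come from GENCODE M21 (GRCm38), used without coordinates of the mm9 reads.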

Additional observations from a re-analysis of the deposited data

How the results depend on the processing

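Of the 18 receptor calls, 12 (4 higher, 8 lower) kept direction and call in every alternative that gave a value, and Nr2f1 in every fit that left out a library. Pparg, Pgr, Esr1, Nr2c1 and Nr4a2 did not, and their values stand in the report. The counts were 4 to 6 higher and 9 to 12 lower when a library was left out, 4 and 9 by DESeq2, and 6 and 8 by FPKM. The receptor median (-0.15) was -0.0161 with library totals alone, -0.0957 on log2(FPKM + 1) and -0.00908 on that scale without filter, and -0.227 to -0.179 with a library left out. Library totals alone, which moved the median gene by 0.13, turned Rxrb to 0.0222 and Nr1h2 to 0.0113. By FPKM, which uses those totals, Rxrb stood at 0.0166 (pseudocount 1, with and without filter) and 0.0189 (pseudocount 0.1), and Nr1h2 at 0.00945 and 0.00984. Expressed receptors were 17 to 26 in knockout and 16 to 25 in control cells over the levels tried, and 25 and 23 to 25 with a library left out. The replicate number as a block gave 6 higher and 11 lower, with Nr4a2 and the adipocyte marker Lipe (adjusted p = 0.0523) no longer called. Deviations of same-numbered libraries correlated by 0.00398, 0.0159 and 0.0232, so the numbers were not taken to pair them. Depth limits the 16 untested receptors and those under about 5 CPM. Their low readings are also not firm evidence of low expression, as stated for the housekeeping genes.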
